A study of Mus musculus with 18 samples.

Results

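The 436 regions described here are stretches of open chromatin that were found more often in naive CD4 T cells with a low Nr4a1 reporter than in those with a high one. They came from 18 ATAC-seq peak lists of C57BL6/J mice labelled WT and untreated. The cells carried an Nr4a1-dsGFP reporter and were taken as low or high for tonic T cell receptor (TCR) stimulation from 3 organs (mesenteric lymph nodes, axillary lymph nodes and spleen), with 3 libraries labelled as biological replicates in each of 6 groups. The sources used here do not give the age or sex of the mice, or how many mice stand behind a library. The regions were chosen by the values of these same libraries. The 14000 peaks with the largest −log10 p of each library on chromosomes 1 to 19 and X were kept, so that every list had equal length, and overlapping peaks were merged into 25305 union regions. A region was taken when at least 4 more of the 9 low libraries than of the 9 high libraries had a peak in it, which held for 436 of 25305 regions, or 1.72%. The difference between low and high is therefore the selection itself and is given below as a description, with no test.

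Naive CD4 T cells receive weak, continuous signals through the TCR from self peptides in the lymphoid organs, and Nr4a1, an orphan nuclear receptor gene, is switched on quickly by such signals. A destabilised GFP driven by Nr4a1 thus reads out how much of this tonic signal a cell has lately received. ATAC-seq uses Tn5 transposase to insert adapters into DNA that is free of nucleosomes, so peaks mark promoters and enhancers that transcription factors can reach. In bulk libraries, a site open in fewer cells and a site less open in each cell cannot be told apart.

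Of the members with a place among the leading 20, in the gene lists or in the densest run, 5 lay over the promoter window of their own gene (250 bases before to 50 after the start). These windows are shown because merged regions with the described difference overlap them. They are from RefSeq on GRCm38.p6, which is build mm10, written 5′ to 3′ on the strand of the gene. Capitals mark the GC box GGGCGG, bound by Sp and Klf factors, or the ETS core CCGGAAG, on either strand. Patz1 encodes a zinc finger factor that acts in the choice between the CD4 and CD8 lineages (chr11:3290207-3290506, plus strand, 8 low and 1 high libraries). Ppp1r37 encodes a regulatory subunit of protein phosphatase 1 (chr7:19562349-19562648, minus strand, 9 low and 3 high). Mnt encodes a partner of Max that opposes Myc (chr11:74830674-74830973, plus strand, 9 low and 3 high). Rarg encodes a retinoic acid receptor (chr15:102246451-102246750, minus strand, 7 low and 3 high), and Cgas encodes the sensor of cytosolic DNA (chr9:78443188-78443487, minus strand, 6 low and 2 high).
Patz1: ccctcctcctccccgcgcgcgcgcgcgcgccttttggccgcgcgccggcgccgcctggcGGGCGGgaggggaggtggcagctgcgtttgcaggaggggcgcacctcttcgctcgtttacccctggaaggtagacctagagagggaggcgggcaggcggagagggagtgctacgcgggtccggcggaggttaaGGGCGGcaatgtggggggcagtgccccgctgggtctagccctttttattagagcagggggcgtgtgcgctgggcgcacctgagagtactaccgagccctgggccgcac
Ppp1r37: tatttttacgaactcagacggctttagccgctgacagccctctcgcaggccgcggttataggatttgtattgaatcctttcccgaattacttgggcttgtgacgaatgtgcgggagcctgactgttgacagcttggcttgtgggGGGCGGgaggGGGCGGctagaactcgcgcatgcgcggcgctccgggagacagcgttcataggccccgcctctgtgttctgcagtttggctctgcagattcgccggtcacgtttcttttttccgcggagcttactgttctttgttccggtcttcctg
Mnt: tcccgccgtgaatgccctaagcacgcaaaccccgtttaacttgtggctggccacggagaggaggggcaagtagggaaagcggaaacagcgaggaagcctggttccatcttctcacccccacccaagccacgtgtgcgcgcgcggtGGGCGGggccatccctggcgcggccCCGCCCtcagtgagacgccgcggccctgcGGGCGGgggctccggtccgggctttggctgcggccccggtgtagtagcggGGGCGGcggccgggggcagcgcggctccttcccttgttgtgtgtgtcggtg
Rarg: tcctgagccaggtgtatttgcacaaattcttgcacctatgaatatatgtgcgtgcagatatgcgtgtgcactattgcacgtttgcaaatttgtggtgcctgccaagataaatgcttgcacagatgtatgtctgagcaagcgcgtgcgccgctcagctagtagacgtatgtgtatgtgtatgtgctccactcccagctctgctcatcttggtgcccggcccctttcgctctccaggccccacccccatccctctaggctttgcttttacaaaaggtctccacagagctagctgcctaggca
Cgas: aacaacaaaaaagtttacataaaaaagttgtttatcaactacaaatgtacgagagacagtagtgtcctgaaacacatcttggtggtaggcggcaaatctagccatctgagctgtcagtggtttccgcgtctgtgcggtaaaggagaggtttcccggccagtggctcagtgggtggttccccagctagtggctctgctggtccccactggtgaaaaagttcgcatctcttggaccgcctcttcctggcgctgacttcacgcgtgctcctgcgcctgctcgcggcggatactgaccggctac

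The Patz1 and Ppp1r37 windows each held 2 GC boxes and the Mnt window held 4, while those of Rarg and Cgas held 0. The ETS core was found in 0 of these 5 windows. The peak summits lay at a median of −569 bp from the start in Patz1 (−830 to −162) and −501.5 bp in Mnt (−951 to −24). The median summit was thus upstream of the printed bases, but some summits lay within them. The merged regions reached into these windows, and the peaks of single libraries may differ. In Ppp1r37 the median summit lay 87 bp after the start, in Rarg 3 bp after it, and in Cgas at −27 bp.

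The libraries differed in depth, and these differences moved with the groups. Depth recovered from the peak values, as the genome-wide reads in 10 kb, was 8.48 to 14.4 in low libraries and 9.60 to 16.6 in high libraries. Before lists were cut to equal length they held 14372 to 18008 peaks in low libraries and 14778 to 23129 in high ones. The −log10 p of the last peak kept was 6.85 to 9.59 in low libraries and 7.44 to 12.4 in high libraries, with the 3 mesenteric high libraries alone above 12. In the 7413 regions present in all 18 libraries, the chi-square of summit reads per region was 0.504 to 0.641 over the 18 pairs within a group. It was 0.607 to 0.961 between groups. Pairs from different organs, at 0.649 to 0.961, all stood above the pairs within a group. Pairs of low and high libraries in the same organ, at 0.607 to 0.746, overlapped with the pairs within a group. The measure was not calibrated against counting noise in regions chosen this way. It therefore does not show whether replicates spread beyond that noise. The replicates were kept as labelled, but p-values over libraries may rest on technical spread and be too small. Of 8 genes that mark naive CD4 T cells, 5 had a region in all 18 libraries and 0 of their 29 regions were members. Lists of other cell types also had a few regions: 3 for B cells, 2 for CD8 T cells, 8 for natural killer cells, 1 for myeloid, 6 for dendritic, 2 for erythroid and 5 for stromal cells. Of these, 2 were members, both by the natural killer gene Eomes, and 1 dendritic and 1 natural killer gene had a region in all 18 libraries. Over all regions 1.72% were members, and nothing is read from member counts this small. The B cell genes Cd79a, Cd79b, Ms4a1 and Pax5, Cd8a, and the myeloid genes Lyz2, Csf1r, Cd14 and S100a8 had 0 regions.

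Members were spread over the ladder of possible counts, mostly at its lower rungs. A difference of 4 libraries was held by 289 members, 5 by 117, 6 by 25 and 7 by 5, and 766 further regions stood just outside the rule with a difference of 3. The most frequent pattern was 5 low and 1 high libraries, in 70 members, followed by 6 and 2 in 58, by 7 and 3 in 51 and by 4 and 0 in 48. In all, 48 members had a peak in all 9 low libraries, 1 of them with 2 high libraries and 27 with 5. In 78 members 0 high libraries had a peak in their equal lists, with 4 to 7 low libraries. Peaks in 3 of 3 low and 0 of 3 high libraries of an organ were seen in 149 members for 1 organ and in 4 members for 2 organs, so most members were gathered from smaller differences in several organs.

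More low than high libraries had a peak in each of the 3 organs in 265 members and in 2 organs in the other 171. Taken by organ, low libraries were ahead in 365 members in spleen, 380 in mesenteric nodes and 392 in axillary nodes, and high libraries were ahead in 7, 5 and 4. The equal lists of the 3 spleen low libraries held peaks in 298, 295 and 299 members, against 94, 90 and 90 in spleen high libraries. Mesenteric low libraries held 300, 302 and 302, against 92, 81 and 92 in mesenteric high libraries. Axillary low libraries held 326, 333 and 335, against 105, 103 and 117 in axillary high libraries. The groups were chosen to stand apart in this count, and they did so by a like margin in every organ.

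**Figure D1:**
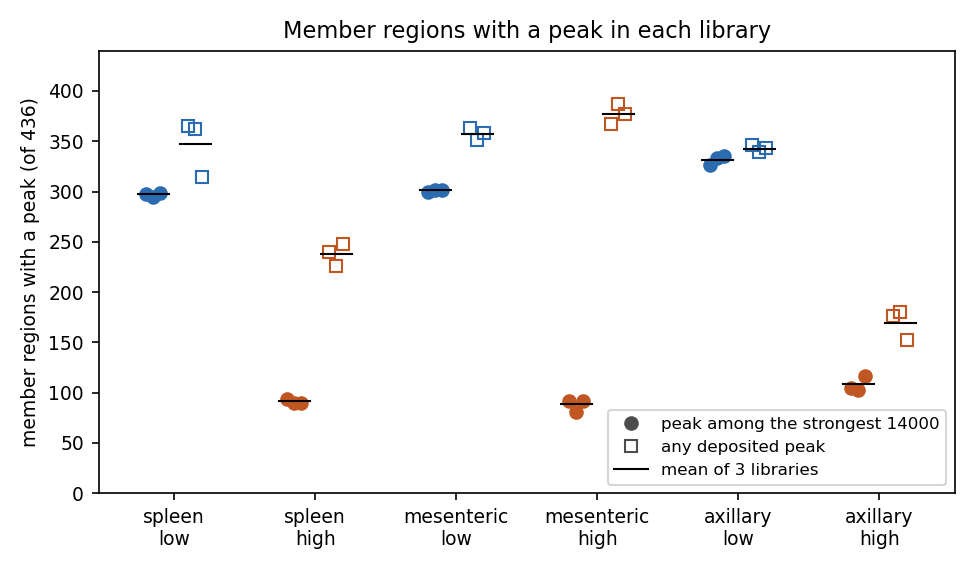
Members with a peak in each library (vertical axis, number of the 436 regions) by organ and reporter level, with low left of high, with filled circles for lists of equal length, open squares for all deposited peaks and lines for the means of 3 libraries. With equal lists the low libraries held 295 to 335 members and the high libraries 81 to 117, while with all deposited peaks the mesenteric high libraries held 367 to 387, above the mesenteric low libraries at 351 to 363.

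The same count was made after the labels low and high were exchanged among the libraries of each organ. The true labels gave 436 regions, whereas the 7998 other assignments gave 223 to 419 with a median of 280, so the true count was 1.56 times that median. Reversing all labels gave the 447 regions that favoured the high reporter by the same difference. When the 3 libraries of a group were moved together, so that the labels of 1 or 2 organs were exchanged, the 6 assignments gave 263, 274, 312, 316, 337 and 356. All 6 were below 436, but with a median of 314 they stood nearer to it, and the true count was 1.39 times that median. Leaving out any 1 library, with the difference kept at the same share, gave 253 to 310 regions; it was 253 to 290 without any of 16 libraries, and 291 and 310 without axillary high replicates 1 and 3. Many regions of the same kind are thus found under exchanged labels. Which regions met the rule also moved with the lists: 190 of the 436 (median of 20 draws) remained after all libraries were thinned to the depth of the shallowest, 155 remained with lists of 12000 peaks and 51 with lists of 10000.

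**Figure D2:**
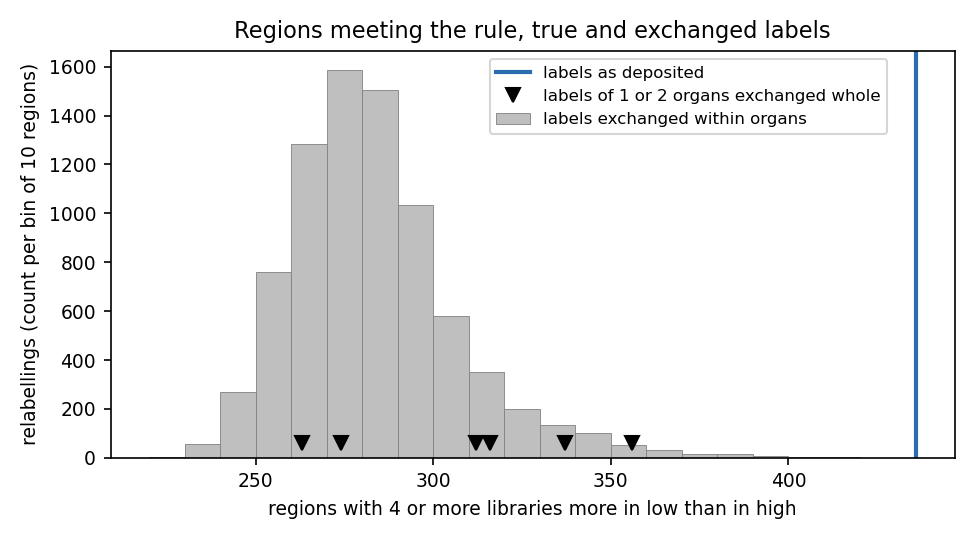
Number of regions with a difference of 4 or more (horizontal axis) under the true labels and when the labels low and high were exchanged within organs (vertical axis, number of assignments). The true count of 436 stands above the 7998 other assignments, which lie between 223 and 419. Black triangles mark the exchanges of whole groups in 1 or 2 organs, at 263 to 356.

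The member with the largest difference and the most low libraries lay 11775 bp outside Ptpn3, a protein tyrosine phosphatase gene (chr4:57350461-57351169). Its peak was in the equal lists of 9 low libraries and 2 high libraries, both of them axillary. Where a peak was deposited, its fold over local background, the authors' own value, was 5.96 to 9.07 (median 7.37) in 9 low libraries and 4.93 to 6.17 (median 6.08) in 6 high libraries. The ranges overlapped in a narrow band, and in 4 of those 6 high libraries the peak was present but ranked below the 14000 kept. A region inside Abi2, whose protein is part of the complex that drives actin branching, was in 8 low and 1 high libraries (chr1:60428955-60429309), with folds of 6.02 to 10.6 in 8 low libraries and 5.65 to 8.65 in 5 high libraries. A region inside Spata31d1a (chr13:59704447-59705033) had the same counts of 8 and 1, and 6 more high libraries had a deposited peak below the 14000 kept. Such a peak ranked lower in its own library and was not always weaker: in mesenteric high replicates 1 and 3 its fold was 6.87 and 6.86, against 5.95 and 5.55 for the peaks kept in axillary low replicates 1 and 2. The Patz1 region (chr11:3289508-3290437) was in 8 low and 1 high libraries, and its fold was 4.87 to 6.24 in 9 low libraries and 3.63 to 5.97 in 8 high libraries. Thus the Patz1 promoter region had a deposited peak in nearly every library of both levels. Its place in the ranked lists differed, and so did its median fold, at 5.49 in low and 4.83 in high libraries, with overlapping ranges.

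A region 418334 bp from Mc2r, the receptor gene for adrenocorticotropic hormone, was in 7 low and 0 high libraries (chr18:68847451-68847858). It was in 3 spleen, 1 mesenteric and 3 axillary low libraries, and a peak of any rank was deposited in 8 low and 3 high libraries, with folds of 5.64 to 8.42 in the low and 5.03 to 7.23 in the high ones. The mesenteric high replicates 1 and 2, at 7.15 and 7.23, stood above the 6.91 of the peak kept in mesenteric low replicate 2, but their lists were cut at a higher −log10 p. Among the next members, 5 had 9 low and 3 high libraries. They lay by Tmem158 (25 bp outside it), inside Igsf23, 54152 bp outside Slc39a11 (a zinc transporter gene), in Ppp1r37 and at the promoter of Mnt. The Mnt peak was deposited in all 9 low and all 9 high libraries, with folds of 4.98 to 6.13 (median 5.22) in low libraries and 4.08 to 6.16 (median 4.70) in high libraries, so both levels overlapped over most of their range. At Slc39a11 the 3 axillary high libraries were in the equal lists as well as the 3 axillary low ones, and the difference came from spleen and mesenteric nodes alone. A further 6 members had 8 low and 2 high libraries. These lay inside Txndc16, inside Spata5 (an ATPase gene), inside Mcu (the pore of the mitochondrial calcium uniporter), by Lmo4 (a LIM domain adaptor), inside Klhl3 (an adaptor of a Cul3 ubiquitin ligase) and by Il20rb (a cytokine receptor chain). At Txndc16 the fold was 5.74 to 12.1 in 8 low libraries and 4.88 to 9.12 in 7 high libraries. At Il20rb the median fold was 6.59 in 9 low libraries and 6.93 in 7 high libraries, which runs against the difference in presence.

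The last 4 of the leading 20 had 7 low and 1 high libraries. Inside Deup1, a gene of centriole amplification, the peak was deposited in 7 low and 2 high libraries, a difference of 5 that among these 20 was matched by Mc2r alone (8 and 3). Inside Jarid2, a partner of the Polycomb repressive complex PRC2, the equal lists held it in 7 low and 1 high libraries, but the median fold was 7.06 in 8 low libraries and 7.05 in 6 high libraries. Inside Ezr, which encodes ezrin, a linker of actin to the cell membrane, the fold was 5.22 to 9.12 in 8 low libraries and 5.14 to 7.18 in 5 high ones. By Samsn1, a lymphocyte adaptor gene, it was 5.46 to 10.7 in 7 low libraries and 5.78 to 7.99 in 6 high ones. Fold ranges of the levels overlapped in each of the leading 20 members.

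**Figure D3:**
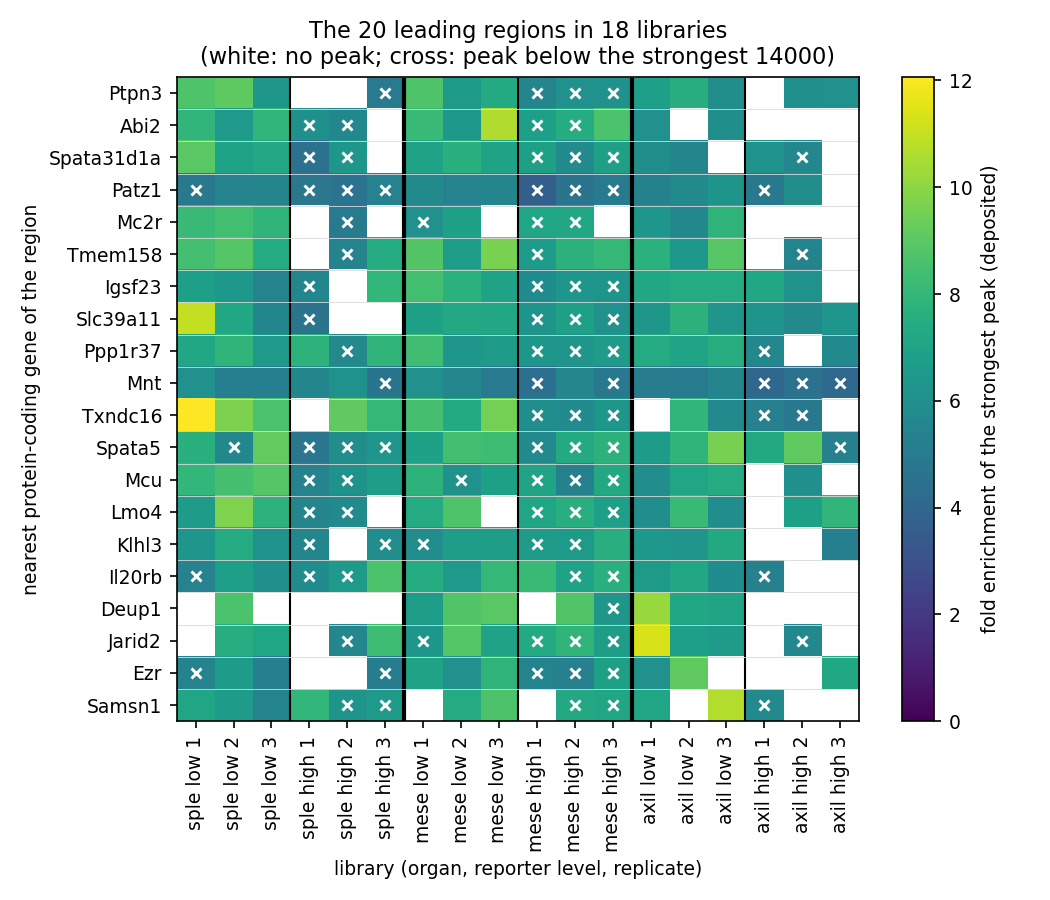
Libraries with a peak in each of the 20 leading members, named by the nearest protein-coding gene; columns are the libraries by organ, with low left of high, colour gives the deposited fold of the strongest peak, a cross marks a peak below the 14000 kept and white marks no deposited peak. Ptpn3 is coloured without a cross in all 9 low columns and in 2 high columns, and crosses are densest in the mesenteric high columns.

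Many absences in the high libraries were peaks that ranked below the 14000 kept, and the cut lay at a different strength in each library. Over the 436 members and 9 low libraries, 2790 of 3924 pairs (71.1%) were in the equal list, against 864 of 3924 (22.0%) over the 9 high libraries. Of the 1134 pairs absent in low libraries, 351 (31.0%) had a deposited peak below the rank kept, and of the 3060 absent in high libraries 1489 did (48.7%). In the mesenteric high libraries, the deepest, this share was 83.0%, against 42.6% in spleen high and 18.6% in axillary high libraries. When presence in the same 436 regions was read from all deposited peaks, a reading added after the data were seen, 51 of them still had a difference of 4 or more, 309 had 1 to 3, 57 had 0 and 19 had more high than low libraries. The median difference was then 2. The rule applied anew to all deposited peaks gave 102 regions, while 1505 regions favoured high by the same difference, against 447 with equal lists. The mesenteric low libraries then held peaks in 363, 351 and 358 members, fewer than the mesenteric high libraries at 367, 387 and 377. Spleen low libraries held 365, 362 and 314, against 240, 226 and 248 in spleen high, and axillary low libraries held 346, 339 and 343, against 176, 180 and 152 in axillary high. After all libraries were thinned to equal depth, a median of 509.5 regions favoured low and 470 favoured high, and 190 of the 436 remained. Depth and list length move with reporter level in the mesenteric nodes. Their part in the result was not tested beyond these counts and this thinning.

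To read the difference in libraries that had not been used to choose regions, the rule was applied to the 12 libraries of 2 organs with a difference of at least 3, and the chosen regions were read in the 6 libraries of the third organ. In spleen, 624 regions chosen in both lymph nodes had a peak in 291 to 302 of them per low library, against 249 to 255 per high library, 44 more on average. In mesenteric nodes, 658 chosen regions gave 301 to 308 per low library, against 250 to 293 per high library, 29.7 more. In axillary nodes, 597 chosen regions gave 312 to 327 per low library, against 271 to 275 per high library, 46.3 more. The 3 low libraries stood above the 3 high libraries in every organ, by 7.05, 4.51 and 7.76 per 100 chosen regions for spleen, mesenteric and axillary nodes. In each, the exact permutation test over 3 against 3 libraries gave a two-sided p of 0.1, the smallest it can give. Regions chosen by the same difference towards high gave low minus high values of −41.3 in spleen, −50.7 in mesenteric and −42 in axillary nodes. In these lists the direction thus carried over to libraries outside the choice, at a small part of its size among the members. With lists of 10000 peaks the differences were 2.17 in spleen and 5.13 in axillary nodes (p = 0.3 each, exact permutation test), where the levels overlapped, and 4.99 in mesenteric nodes (p = 0.1, exact permutation test). Without mesenteric high replicate 2 the difference per 100 regions was 4.67 in spleen and 2.58 in mesenteric nodes.

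Per region, more low than high libraries of the spleen had a peak in 36.7% of the regions chosen elsewhere, against 32.5% of the 6812 regions that could have been chosen. The shares were 36.5% against 30.4% of 6989 in mesenteric nodes, and 39.7% against 31.2% of 6704 in axillary nodes. Over all the regions that could have been chosen, low minus high libraries differed by 102 regions in spleen, −43.3 in mesenteric and 37.3 in axillary nodes. Per 100 of those regions this was 1.49, −0.620 and 0.557. The opposite, more high than low libraries, was seen in 23.9%, 26.0% and 22.9% of the chosen regions in spleen, mesenteric and axillary nodes. Over all that could have been chosen, it was seen in 29.2%, 31.1% and 30.0%. With all deposited peaks the mesenteric value turned round, to a low minus high difference of −23.7 per 100 chosen regions.

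**Figure D4:**
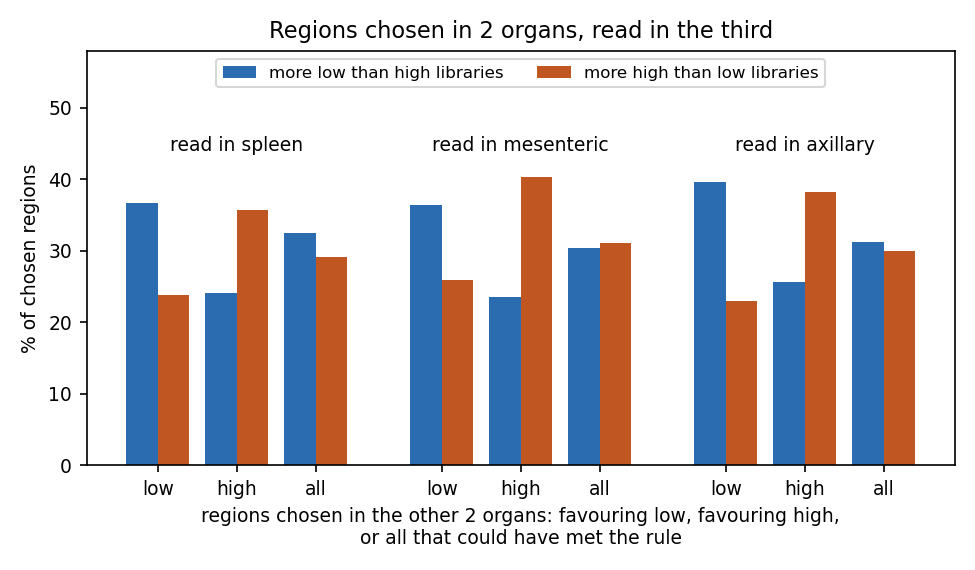
Share of regions (vertical axis, percent) with more low than high libraries (blue) or more high than low libraries (orange) in the organ not used to choose them, for regions favouring low in the other organs, regions favouring high there, and all that could have been chosen. Blue bars of the regions favouring low stand at 36.7% in spleen, 36.5% in mesenteric and 39.7% in axillary nodes, and those of all regions at 32.5%, 30.4% and 31.2%.

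The number of members with a peak was also set side by side between organs within reporter levels. The presence values are those that chose the members, so the organ differences are descriptions and no p is drawn from them. Axillary libraries held 219.833 members on average over low and high, spleen libraries 194.333 and mesenteric libraries 194.833. The axillary libraries held 25.5 more than spleen (34 in low and 17 in high libraries) and 25 more than mesenteric nodes (30 in low and 20 in high libraries), and mesenteric nodes and spleen differed by 0.5. Depth was 8.48 to 10.2 reads in 10 kb in axillary libraries, 9.84 to 14.4 in spleen and 11.7 to 16.6 in mesenteric libraries, and its part in these differences was not tested. Over all regions in 4 to 14 libraries, axillary libraries held 70.8 more than spleen and differed by −41.8 from mesenteric libraries. With all deposited peaks the members' order turned round, and axillary libraries differed by −36.5 from spleen and by −111 from mesenteric libraries. With lists of 10000 peaks the axillary excess over spleen was 5.33.

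Each region was also tested by itself between organs (exact Fisher-Freeman-Halton test). Of the members, 5 of 361 members present in 5 to 13 libraries had an unadjusted p under 0.05, or 1.39%, against 338 of 5712 regions (5.92%). Those 5 lay nearest to Gprc5b, Fbxl17, Spink13, Lrrc8c and Gm46963, named here after their values were seen. After Benjamini-Hochberg adjustment over 5712 regions 0 members and 0% of all regions passed, with a smallest adjusted p of 0.542 among members and 0.154 among all. The members were chosen on their sum over organs, from the same presence values, so nothing is read from their smaller share.

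Genes known in T cells stood near 36 members, out of 1103 regions assigned within 100 kb to the 288 genes of 11 lists (3.26%), against 1.72% of all regions. Of the regions in 4 to 14 libraries, those that could meet the rule, members were 36 of 401 near listed genes (8.98%) and 5.92% of 7359 overall. For comparison, 40 of those 401 favoured the high reporter, against 36 that favoured low. Over all 7359, 447 favoured high and 436 favoured low. By list, members were 0% (interferon response) to 7.55% (homing) of regions, against 1.72% over all. The lists were small, with 14 to 59 regions in 4 to 14 libraries in the larger lists and the Notch list. Contrasts of a few regions within a list are therefore not read as leanings. The rule itself chose the members, and these counts are descriptions without a test. The pairs of counts below are for equal lists. Read from all deposited peaks, 51 of the 436 members kept a difference of 4 or more, and 309 had 1 to 3. A further 57 had 0, and 19 were below 0.

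The lineage factors of T cells had 6 members and 1 region favouring high among 124 regions. The 6 lay inside Ets1 (9 low and 5 high libraries), inside Runx1 (7 and 2), inside Tcf12 (4 and 0), by Ikzf1 (5 and 1) and at 2 sites by Eomes (6 and 2, and 4 and 0). With all deposited peaks the Ikzf1 region had 5 low and 5 high libraries. Eomes, a T-box factor of memory and cytotoxic cells, is also counted as a natural killer cell marker. The natural killer list had 8 regions, of which low libraries held 2 to 5 and high libraries 1 to 4, with no region for its defining gene Ncr1, and the part of such cells in the Eomes values was not tested. Of genes for chromatin regulators, 4 members lay by Eed (9 and 5), in Tet1 (7 and 3), by Arid1b (6 and 2) and by Ep300 (5 and 0), against 1 region favouring high among 104. Eed is a core subunit of PRC2, Tet1 oxidises methylcytosine, Arid1b belongs to the SWI/SNF remodeller and Ep300 is a histone acetyltransferase. The Ep300 region had a deposited peak of any rank in 5 low and 4 high libraries. The Notch pathway list had 2 members, by Spen (8 and 4) and in Maml2 (5 and 0), and 0 regions favouring high among 45. Maml2, a Notch coactivator, had a deposited peak in 8 low and 2 high libraries, so its difference was larger with all peaks.

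The TCR signal and activation list had 5 members against 9 regions favouring high, among 170. Members lay in Cd247, the zeta chain of the TCR complex (5 low and 1 high libraries), in Il2ra, the alpha chain of the interleukin 2 receptor (5 and 1), in Tox (5 and 0) and in Myc (8 and 4). With all deposited peaks Cd247 and Tox each had 7 low and 3 high libraries, and Myc had 9 low and 9 high. In spleen the Myc region was in the equal lists of 2 low and 3 high libraries. The negative regulators of TCR signal had 4 members against 7 favouring high, among 129. These lay in Cblb, a ubiquitin ligase gene (4 and 0), in Dgkz, a diacylglycerol kinase gene (5 and 1), in the phosphatase gene Ubash3b (5 and 1) and by the phosphatase gene Dusp5 (6 and 2). At Cblb the deposited peaks were in 4 low and 4 high libraries, so 0 of that difference remained with all peaks. Transcription factors of the AP-1, NFAT, NF-kB and IRF families had 2 members, in Nfatc2 (4 and 0) and by Irf2 (6 and 2), and 0 regions favouring high among 89. At Irf2 all 9 high libraries had a deposited peak, against 7 low libraries.

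The naive state and survival list had 4 members and 6 regions favouring high, among 170. They were 2 sites inside Foxp1, a factor that keeps naive T cells quiescent (5 low and 0 high libraries at each), 1 inside Bcl2 (6 and 2) and 1 by Btg1 (5 and 1). With all deposited peaks the Foxp1 sites had 6 low and 5 high, and 7 low and 5 high libraries. Foxp1 and Btg1 each also had 3 regions that favoured high, which were the 6 of this list. Of the other listed genes with members, Cd44 had 2 regions favouring high, and Eed, Il21r and Dgkz had 1 each. The cytokine, receptor and STAT list had 4 members and 9 favouring high among 125, with members by Il21 (9 and 5), in Il21r (9 and 5), by Tgfbr2 (6 and 1) and by Ifngr1 (8 and 4). The Ifngr1 region had a deposited peak of any rank in 8 low and 8 high libraries. The homing list had 4 of each among 53, with members by the chemokine receptor gene Cxcr4 (7 and 2), by the integrin gene Itgal (6 and 1), in Cd44 (7 and 3) and at the Rarg promoter. Among the cell cycle genes 1 member lay by Cdkn1b (5 and 1), and 1 of 62 regions favoured high. The interferon response list had 0 members and 2 regions favouring high among 36.

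The members were mostly in the weaker part of the lists. Their median place in the low lists was at 77.8% of the list counted from the strongest peak, against 78.2% for all regions in 4 to 14 libraries and 69.3% for all regions. Their median width was 451.5 bp, against 442 bp for varying regions and 469 bp for all regions. The median −log10 p of a region's peaks was under 10 in 16.7% of members, against 9.91% of varying regions, 15.7% of all regions and 3.58% of the regions favouring high. The cuts differed between libraries and lay at 12.3 to 12.4 in mesenteric high lists, which hold no peak under 10, so nothing is read from these shares. The median fold of the members' kept peaks was 7.09 in low libraries and 7.41 in high libraries, against 7.56 and 8.17 over all regions. Kept peaks had passed the cut of their own library, so nothing is read from this difference. A protein-coding gene held 58.3% of members, against 58.6% of varying regions and 60.3% of all regions. Within 1000 bp of a gene end lay 90 members (20.6%), against 24.7% of varying regions and 35.8% of all regions. More than 100 kb from any gene end lay 49 members (11.2%), against 8.43% and 6.90%.

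A promoter window of at least 1 gene was touched by 76 members, or 17.4%, against 21.0% of varying regions, 31.7% of all regions and 13.6% of the regions favouring high. They covered 93 windows. The GC box (GGGCGG, either strand) was in 72.0% of these 93 windows, in 61.9% of windows under varying regions and in 69.6% of windows under all regions, while 35.9% of all windows held it. The CCAAT box (CCAAT, either strand) was in 20.4% of the members' windows, against 27.2% under varying regions, 38.4% under all regions and 37.6% of all windows. The core of Runx sites (TGTGGT) was in 21.5% (20 windows), against 13.8% under varying regions, 11.8% under all regions and 16.6% of all windows. That of CRE sites (TGACGT) was in 3.23% (3 windows), against 11.0%, 13.4% and 7.56% in the same order. Under regions favouring high, windows held the GC box in 52.1%, CCAAT in 36.6%, Runx in 9.86% and CRE in 9.86%. The remaining motifs counted stood near the varying regions. The ETS core was in 18.3%, against 17.9%, and the E-box in 11.8%, against 11.5%. AP-1 sites were in 5.38%, against 4.90%, and the TATA box in 5.38%, against 6.21%. These matches describe letters in the window and not binding. Among T cell genes with a member over their promoter, picked after their values were seen, were Ltb (lymphotoxin beta, 6 low and 1 high libraries), Pik3cd (a phosphoinositide kinase subunit, 5 and 1), Sla2 (an adaptor that dampens TCR signal, 6 and 2) and Nt5e (the ectoenzyme CD73, 9 and 5).

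By chromosome, chromosome 9 held 39 members and 20 regions favouring high among 378 varying regions (10.3% and 5.29%), and chromosome 14 held 8 members and 36 favouring high among 314 (2.55% and 11.5%). Over all varying regions the members' share was 5.92%. On chromosome 14, low libraries had fewer regions of the equal lists than high libraries in each organ. The means were 563.667 in low and 599 in high spleen libraries, 519 in low and 569.667 in high mesenteric libraries, and 546 in low and 593 in high axillary libraries. The local background of its peaks relative to the library's median was 1.06 to 1.17 in low libraries and 1.09 to 1.24 in high libraries, and its part in the count was not tested. On chromosome 9 the means were 678 against 664.333 in spleen and 686 against 670.333 in axillary nodes, but 678.667 against 696.333 in mesenteric nodes, so the whole chromosome did not lean one way. The densest run of members within 1 Mb, with 5 of them, was also on chromosome 9. It spanned regions by Klhl31 (4 low and 0 high libraries), Elovl5 (6 and 2), Cgas (7 and 3, and 6 and 2) and Slc17a5 (4 and 0).

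**Figure D5:**
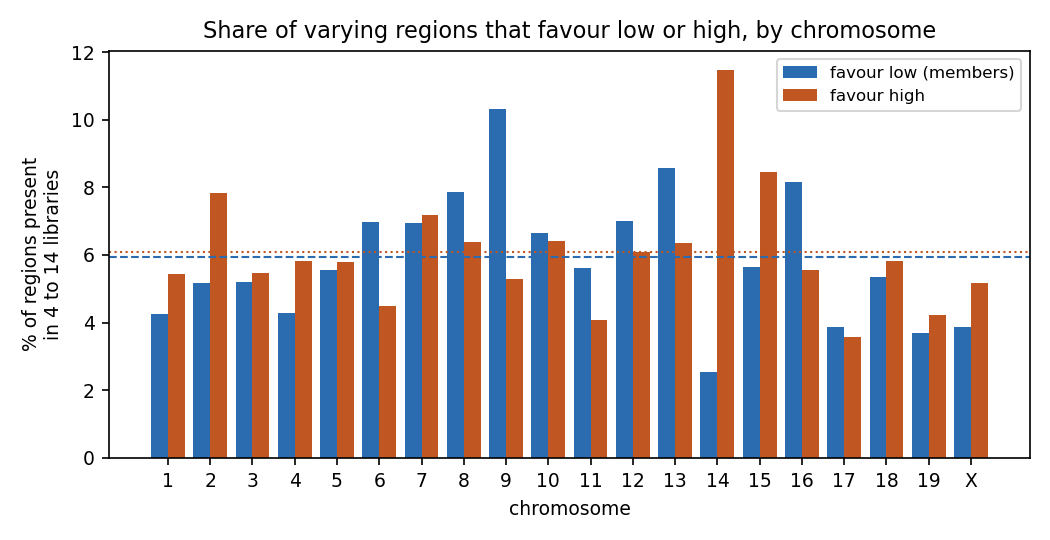
Share of the varying regions of each chromosome (vertical axis, percent) that favoured the low reporter, with the share that favoured the high reporter to its right and lines at the shares over all chromosomes. Chromosome 14 stands out with 2.55% against 11.5%, and chromosome 9 leans the other way with 10.3% against 5.29%.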

How the data were processed

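Each library started from 500000 cells, with lysis on ice (15 min) and tagmentation at 37 °C (30 min), per the labels. Per the submitters' processing notes, Trimmomatic 0.33, Bowtie2, bedtools and MACS were used on mm10, and the sources used here do not give caller options, duplicate handling or read shifting. The deposited peak lists, 1 per library, give for each peak a fold over local background, a −log10 p, its −log10 q and a score, and the smallest deposited −log10 p was 5.00. Ranking and filtering used these values within a list, and folds printed for several libraries are not scaled between them.

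Peaks off chromosomes 1 to 19 and X (404 of 314829) were set aside, leaving 314425. The 14000 peaks with the largest −log10 p per library were merged at 1 bp of overlap. Pileup and background reads, and from them depth, were recovered from the fold and −log10 p of each peak within 0.002 of the −log10 p. Genes and promoter windows came from RefSeq tables of GRCm38.p6 (21627 protein-coding genes), and a region was assigned to the nearest one within 100000 bp in lists. Groups came from the sample titles, which do not say whether replicates are separate animals. Libraries were compared by exact permutation tests (smallest p 0.1 for 3 against 3; the p of members between organs is left out, since the same presence values chose the members) and regions by the exact Fisher-Freeman-Halton test. The regions and all lists were chosen with earlier results of these data known. Named were the first 20 members by difference, then by low libraries, then by mean rank; members assigned to a listed gene; and members of the densest run within 1 Mb. Some genes that the rule names are not reported here. Values were computed with Python 3.11.15, numpy 2.4.6, pandas 2.3.3 and scipy 1.17.1. Alternatives were other list lengths, all peaks, ranking by fold, stricter overlap, summits, equal depth and omission of libraries or organs.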

Additional observations from a re-analysis of the deposited data

Results flagged for a closer look

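Of 46 groups of values checked for a sample far from the others, 3 held such a sample, and chance alone gives about 1 in 20. In spleen low replicate 1, 104 of the regions favouring the high reporter had a peak, a value apart from those of the other 8 low libraries. The fold at the Abi2 member was 10.6 in mesenteric low replicate 3, above the other low libraries. The fold at the Slc39a11 member was 11.0 in spleen low replicate 1, above the other low libraries.

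The number of members with any deposited peak differed in direction between organs. Low libraries held 109 more than high libraries in spleen and 173 more in axillary nodes, but their difference in mesenteric nodes was −19.7. Every low library stood on the same side of every high library within each organ, and the difference between organs was not tested.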

How the results depend on the processing

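The count of 436 members was within 1.5 times under lists of 12000 (389) and 10000 (309), ranking by fold (508), 50 bp of overlap (435), summits (441), equal depth (median 509.5) and without spleen (624) or axillary nodes (597). It was 102 with all deposited peaks (where 1505 favoured high), 1202 at a difference of 3, 147 at 5 and 658 without mesenteric nodes. Without 1 library, with the difference kept at the same share, it was 253 to 310: 253 to 290 without any of 16 libraries, and 291 and 310 without axillary high replicates 1 and 3. These lower counts follow partly from the rule, and without an organ the same share meant a difference of 3. Of the 436, 155 remained with lists of 12000, 51 with lists of 10000, 295 by fold and a median of 190 at equal depth. The axillary excess over spleen was 5.33 with lists of 10000, and with all deposited peaks −36.5, and −111 over mesenteric nodes. With all deposited peaks the held-out mesenteric difference per 100 regions was −23.7, and 851 regions had an unadjusted organ p under 0.05. Held-out differences were 2.17, 4.99 and 5.13 per 100 regions in spleen, mesenteric and axillary nodes with lists of 10000, and 4.87 in spleen with all peaks. The cause of these changes was not tested. Leaving out 1 library gave 23.3 to 26.8, 22.8 to 26.3 and −0.417 to 2.33 for the 3 organ differences, and 4.67 to 8.67, 2.58 to 6.71 and 6.45 to 8.89 per 100 held-out regions in spleen, mesenteric and axillary nodes. Within an organ, low and high libraries with the same replicate number had correlations of −0.0140 to 0.0123, and those with other numbers −0.0194 to 0.0225. The ranges overlapped, and the chi-square of summit reads was not calibrated against counting noise. These correlations therefore could not decide whether replicate numbers pair libraries. A replicate block changes only which relabellings are counted, so the axillary differences of 25.5 and 25 stay the same by construction. With the block the held-out p was 0.25 in each organ, against 0.1 without it (exact permutation tests). The lowest −log10 p of a last kept peak was 6.85, in axillary low replicate 2 (depth 9.24 reads in 10 kb). It was 6.90 in the shallowest library, axillary low replicate 3 (8.48). The part of depth in these cuts was not tested.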
